A study of Mus musculus with 2040 samples.

Results

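The 10 genes described here belong to glucose and lactate handling and were followed across cell classes and brain regions of the mouse: Slc2a1, Aldoc, Pfkfb3, Ldha, Ldhb, Slc16a1, Slc16a7, Pdk4, Pygb and Gys1. They were taken by name from a table of single-cell RNA-seq values with 32245 gene columns, and 10 of 10 were found. The study sorted single SYFP2-positive brain cells of C57Bl/6J mice, each mouse given 1 viral (AAV) vector in which a named enhancer or promoter drives the fluorescent reporter, and made a SMARTerv4 library from each cell. There were 2040 cells from 47 mice and 30 vectors, 1785 cells from the visual cortex (VISp, 41 mice, 27 vectors), 81 from the cerebellar cortex (CBX, 2 mice, vector eHGT_375m) and the rest from midbrain and hindbrain (MB/HB, 4 mice, vectors eHGT_381h and MGT_E160m). Since each vector went into 1 tissue, effects of tissue and of vector cannot be told apart. Every group shares the strain, the AAV delivery and the sort, and the mice are numbered here within a group in the order of their IDs. Sex, age, dose and time after infection are not in the labels used here.

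Glucose enters brain cells through facilitative transporters, is broken down by glycolysis to pyruvate, and pyruvate is either taken into mitochondria or reduced to lactate by lactate dehydrogenase. Astrocytes store glycogen and are known for strong glycolysis. In the lactate shuttle model, astrocytes, and oligodendrocytes along axons, release lactate through monocarboxylate transporters and neurons take it up. Slc2a1 (GLUT1) is the main glucose transporter of brain endothelium and glia. Aldoc is the brain aldolase, and Pfkfb3 makes the sugar phosphate that activates phosphofructokinase. Ldha and Ldhb encode the 2 subunits of the lactate dehydrogenase tetramer. Slc16a1 (MCT1) and Slc16a7 (MCT2) carry lactate, Pdk4 switches off pyruvate dehydrogenase, Pygb breaks glycogen down and Gys1 builds it.

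Cell classes were rebuilt by clustering without the 10 genes and without the other pathway genes described here. This gave 968 astrocyte-like cells (739 from VISp, 81 from CBX, the rest from MB/HB), 973 oligodendrocyte-like cells (962 VISp) and 99 neuron-like cells (84 VISp). Of the CBX astrocyte-like cells 96.3% lay in 1 cluster, of the MB/HB ones 93.9% in another, and of the VISp ones 93.9% in 2 further clusters. The level of a gene in a mouse is the mean CPM (reads per 1000000) over its cells of a class, with at least 10 cells for glia and 5 for neurons. This left 19, 2 and 4 mice for astrocyte-like cells of VISp, CBX and MB/HB, 22 for VISp oligodendrocyte-like cells and 3 (61 cells, 2 vectors) for VISp neuron-like cells. A cell had between 57873 and 1455022 reads, with a median of 434101. All 13 astrocyte markers were at 1 CPM or more in most mice of each astrocyte-like group, but also of the oligodendrocyte-like group. Their summed CPM told the classes apart. Its median over mice was 28682 in VISp, 25336 in CBX and 22761 in MB/HB astrocyte-like cells. In VISp oligodendrocyte-like cells it was 433.01 and in neuron-like cells 135.2. In the neuron-like cells, markers of GABAergic neurons summed to between 2494 and 3563 CPM per mouse and those of glutamatergic neurons to between 49.8 and 426.4. They were collected with vectors eHGT_374m and MBP_promoter and need not represent cortical neurons at large.

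Of the genes that passed between cerebellar and cortical astrocyte-like cells, 1 that was higher and 2 that were lower are shown with the 250 bases before a RefSeq transcript start (GRCm38.p6), which 9 of the 10 genes had in the table used. Ldha had 2 such windows, and the one that lies first on the chromosome is shown. In capitals is ACGTG, 1 form of the core of the hypoxia response element, RCGTG, where R is A or G. It was searched on both strands, so that a palindrome of 6 letters holds it once on each strand. The form GCGTG was not counted.
Ldha, chr7:46845554-46845803, + strand: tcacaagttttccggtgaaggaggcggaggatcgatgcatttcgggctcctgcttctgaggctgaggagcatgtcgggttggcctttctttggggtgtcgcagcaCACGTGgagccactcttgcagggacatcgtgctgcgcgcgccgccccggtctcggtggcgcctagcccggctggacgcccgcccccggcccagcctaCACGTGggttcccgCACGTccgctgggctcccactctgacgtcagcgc
Slc2a1, chr4:119108495-119108744, + strand: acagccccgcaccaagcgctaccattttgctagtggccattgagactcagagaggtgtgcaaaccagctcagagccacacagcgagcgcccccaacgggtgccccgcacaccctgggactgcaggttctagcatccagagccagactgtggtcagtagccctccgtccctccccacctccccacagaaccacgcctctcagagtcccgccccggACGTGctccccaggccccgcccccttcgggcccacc
Pdk4, chr6:5496279-5496528, - strand: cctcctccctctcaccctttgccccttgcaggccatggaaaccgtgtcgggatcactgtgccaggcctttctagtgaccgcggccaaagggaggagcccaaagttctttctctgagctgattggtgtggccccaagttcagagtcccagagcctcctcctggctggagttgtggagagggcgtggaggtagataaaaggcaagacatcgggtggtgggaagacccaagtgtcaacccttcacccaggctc
The Ldha window shown held ACGTG 5 times and the other Ldha window, chr7:46846832-46847081, held it 0 times. The Slc2a1 window held ACGTG 1 time and that of Pdk4 0 times, and both windows of Aldoc, the other gene that was higher in CBX, held it 0 times. The Pdk4 window does hold the uncounted form GCGTG, so 0 here does not mean that the core is absent. Genes that did not pass between CBX and VISp held ACGTG too: Slc16a1 2 times, Pygb 1 time and the windows of Pfkfb3 1 and 2 times. Those of Ldhb and Gys1 held it 0 times. Of 32851 such windows of the same length, 16.6% held ACGTG at least once. GTAAACA, a forkhead motif, was in 0 of the 3 windows shown and in 3.17% of all. The Aldoc window chr11:78323948-78324197 held it 1 time and the other Aldoc window 0 times. These are matches of letters, and no binding was measured.

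**Figure D1:**
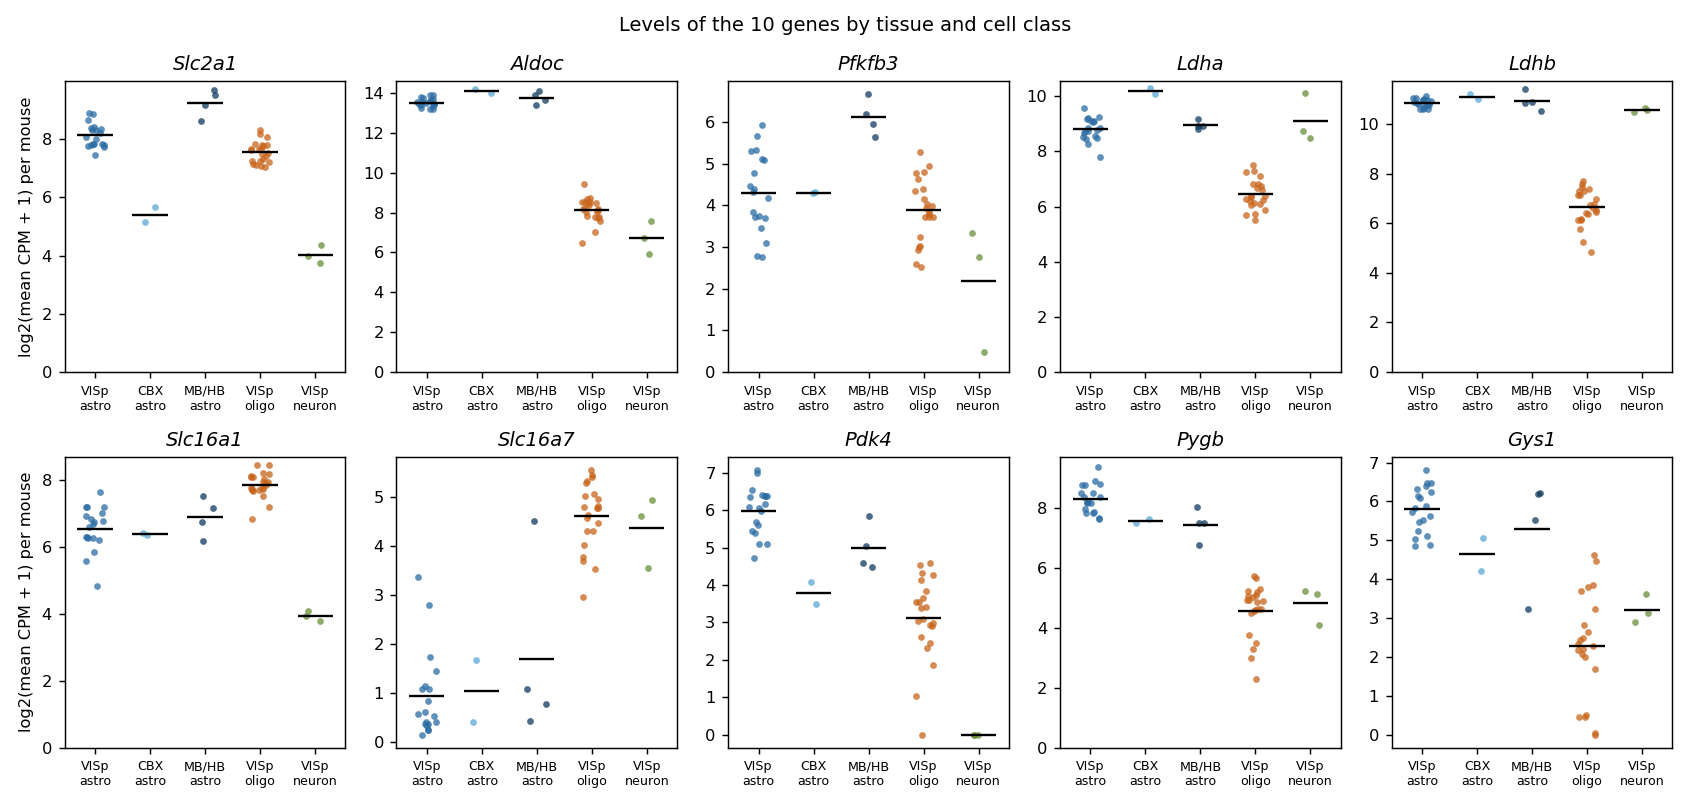
Level of each gene as log2(mean CPM + 1), 1 point per mouse, in astrocyte-like cells of 3 tissues (19, 2 and 4 mice) and in VISp oligodendrocyte-like (22) and neuron-like cells (3), with bars at the mean. The CBX mice lie above the VISp range for Ldha and below it for Slc2a1 and Pdk4, Aldoc and Ldhb separate the astrocyte-like from the oligodendrocyte-like cells, and Slc16a7 is low in astrocyte-like cells.

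Per kilobase of exon, which allows levels of different genes to be compared, Aldoc was the most abundant of the 10 in VISp astrocyte-like cells at 4001 ± 577.2 CPM per kb (SD, n = 19 mice). Ldhb followed at 1429 ± 158.6 and Ldha at 243.1 ± 67.1. Slc2a1 (89.5 ± 26.4) and Pygb (84.7 ± 29.5) did not differ beyond their spread, and Slc16a1 (22.8 ± 9.23), Pdk4 (19.7 ± 8.5) and Gys1 (16.02 ± 6.46) overlapped too. Pfkfb3 (4.15 ± 2.78) and Slc16a7 (0.124 ± 0.202) were lowest. In VISp oligodendrocyte-like cells the order was flatter: Aldoc at 101.3 ± 41.3 CPM per kb (n = 22), Ldhb at 85.4 ± 38.5, Slc2a1 at 59.2 ± 15.8, Slc16a1 at 53.7 ± 12.9 and Ldha at 48.5 ± 19.2 all overlapped. In the neuron-like cells Ldhb led at 1172 ± 78.5 CPM per kb (n = 3), ahead of Ldha at 333 ± 218.5 and Aldoc at 39.7 ± 21.8.

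Tissue comparisons of astrocyte-like cells came first. Against VISp, 4 of the 10 genes passed the test in CBX: Ldha and Aldoc were higher, Slc2a1 and Pdk4 lower. The test was limma on log2(mean CPM + 1) per mouse, with p adjusted over 3444 genes at a threshold of 0.05. Of all genes tested, 10.7% passed between CBX and VISp, 4.94% higher and 5.78% lower in CBX. In MB/HB, 4 genes passed: Slc2a1 and Pfkfb3 were higher, Pdk4 and Pygb lower, where 13.4% of all genes passed (6.27% higher, 7.17% lower). Between CBX and MB/HB, Ldha was higher and Slc2a1 lower in CBX, where 9.23% of all genes passed (4.09% higher, 5.14% lower). The CBX and MB/HB comparisons share the VISp mice. The median difference over the 10 genes was -0.08 in CBX and 0.20 in MB/HB, beside -0.03 and -0.05 over all genes.

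Slc2a1 (ENSMUSG00000028645.11, GRCm38 chr4:119108711-119137983, + strand), which brings glucose into the cell, was lowest in CBX. The 2 CBX mice had 34.5 and 50 CPM, the VISp mice 175.3, 268.9 and 478.4 (lowest, median, highest of 19), and the MB/HB mice 392.3, 573.5, 735.4 and 831. Both CBX mice lay below every VISp mouse, while the lowest MB/HB mouse fell inside the VISp range. The log2 difference from VISp was -2.73 ± 0.29 (SE) in CBX, 6.63-fold lower (adjusted p = 1.87e-08), and 1.11 ± 0.21 in MB/HB, 2.17-fold higher (adjusted p = 0.000348). With the mean over cells of log2 values the MB/HB difference was 1.57 and did not pass (adjusted p = 0.06). Between CBX and MB/HB it was -3.84 ± 0.34 (adjusted p = 6.8e-10).

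Endothelial cells are rich in Slc2a1, and their markers moved with the MB/HB result. Of 8 endothelial markers tested, 7 were higher in MB/HB than in VISp astrocyte-like cells (median log2 difference 3.39), and 3 of 7 mural markers were too. Over all genes, 6.27% were higher. Of 11 oligodendrocyte markers tested, 3 were also higher in MB/HB than in VISp and 0 lower (median log2 difference 1.45). The 12 oligodendrocyte markers summed to between 838.6 and 5601 CPM in the MB/HB mice, between 171.1 and 1311 in VISp and between 1935 and 2224 in CBX. The 9 endothelial markers summed to between 24.97 and 602.6 CPM in the MB/HB mice, between 1.76 and 26.7 in VISp and between 16.8 and 20.6 in CBX. In MB/HB, 2 cells, 1 each in mice 1 and 2, had 17934 and 18075 CPM of endothelial markers, and 7439 and 1926 CPM of Slc2a1. Among the MB/HB cells with no endothelial read (48.6% of cells), Slc2a1 was 640.4 ± 122.5 CPM (SD over 4 mice), against 281.8 ± 103.7 in such VISp cells (49.3%, 19 mice) and 52.6 ± 15.9 in such CBX cells (61.7%, 2 mice). Refitted on cells with no endothelial read, where 3 MB/HB and 17 VISp mice kept enough cells, the log2 difference of Slc2a1 between MB/HB and VISp was 1.32 (adjusted p = 0.00994) and that between CBX and VISp -2.36 (adjusted p = 0.000123).

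Aldoc (ENSMUSG00000017390.15, chr11:78322968-78327781, + strand) was at 16357 and 18650 CPM in CBX, 9357, 11620 and 15166 CPM in VISp and 10781, 12831, 15428 and 17701 CPM in MB/HB. The CBX mice lay above the VISp range and within or above the MB/HB range. The log2 difference between CBX and VISp was 0.57 ± 0.17, 1.48-fold (adjusted p = 0.0287). This call was lost without either CBX mouse (adjusted p = 0.129 without mouse 1 and 0.404 without mouse 2), and quantile normalization brought the difference to 0.00. Of 11 oligodendrocyte markers tested, 1 passed as higher in CBX (4.94% of all genes did) and 0 as lower. That gene was Cnp, named after its values were seen, at 1782 and 2018 CPM in the CBX mice and 164.1 to 429.9 CPM in VISp. Mbp (means of 94.75 CPM in CBX and 205.1 in VISp) and Mobp (7.52 and 43.3 CPM), which encode myelin proteins, did not pass.

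Pfkfb3 (ENSMUSG00000026773.19, chr2:11471433-11554077, - strand) stood at 48.5, 60.9, 71.96 and 101.1 CPM in the MB/HB mice, against 5.77, 18.9 and 59.9 CPM in VISp. The CBX mice had 18.5 and 18.9 CPM. Only the lowest MB/HB mouse lay within the VISp range, and both CBX mice were near the VISp median. Between MB/HB and VISp the log2 difference was 1.81 ± 0.47, 3.51-fold (adjusted p = 0.00691). The 2 endothelial-rich cells had 0 CPM of Pfkfb3. On cells with no endothelial read the log2 difference was 1.66 and did not pass (adjusted p = 0.0879, 3 MB/HB mice), and the means were 71.9 ± 27.7 CPM in MB/HB and 25.8 ± 20.8 in VISp.

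Ldha and Ldhb differed in how they varied over tissues. Ldha (ENSMUSG00000063229.15, chr7:46841475-46855627, + strand) had 1081 and 1271 CPM in CBX, 219.4, 438.2 and 758.95 CPM in VISp and 447.1, 481.9, 485.1 and 578 CPM in MB/HB. Both CBX mice exceeded every other astrocyte-like profile, while the MB/HB mice sat inside the VISp range. The log2 difference was 1.40 ± 0.27 between CBX and VISp, 2.64-fold (adjusted p = 0.000305), and 1.24 ± 0.31 between CBX and MB/HB (adjusted p = 0.0076). The second of these was lost without either CBX mouse (adjusted p = 0.126 without mouse 1, 0.0536 without mouse 2). Ldhb (ENSMUSG00000030246.11, chr6:142490249-142507957, - strand) had 2094 and 2355 CPM in CBX, 1556, 1870 and 2251 CPM in VISp and 1481, 1861, 1899 and 2725 CPM in MB/HB. These ranges overlapped and the gene passed no tissue test, with a difference of 0.26 between CBX and VISp (95% interval -0.07 to 0.59, adjusted p = 0.408). Under quantile normalization it was 0.67 and passed (adjusted p = 0.000978).

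The balance of the 2 subunits, the log2 level of Ldha minus that of Ldhb in a mouse, was -1.12 and -0.72 in CBX. It was -2.83, -2.03 and -1.20 in VISp (lowest, median, highest) and -2.50, -2.05, -1.71 and -1.61 in MB/HB. Ldhb exceeded Ldha in CPM in each of these 25 mice, and the CBX mice were nearest to equality. The CBX mean exceeded the VISp mean by 1.14 (exact two-sided permutation test, p = 0.00952, the smallest that 2 against 19 mice allow, 0.019 adjusted over 4 comparisons). For MB/HB against VISp the excess was 0.09 (exact permutation p = 0.688).

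The monocarboxylate transporters passed no tissue test. Slc16a1 (ENSMUSG00000032902.1, chr3:104638668-104658462, + strand) had 80.8 and 84.5 CPM in CBX, 27.7, 102.1 and 197.3 CPM in VISp and 71.2, 105.8, 141.8 and 181.1 CPM in MB/HB. All 3 ranges overlapped, and the difference between CBX and VISp was -0.16 (95% interval -1.05 to 0.72). Slc16a7 (ENSMUSG00000020102.15, chr10:125219270-125389465, - strand) was near 0 in astrocyte-like cells of all tissues, at 0.326 and 2.19 CPM in CBX and 0.12, 0.498 and 9.28 CPM in VISp. The MB/HB mice had 0.35, 0.719, 1.13 and 21.99 CPM. The value of 21.99 came from mouse 2, where 1 of 32 cells held every Slc16a7 read (703.6 CPM), and that cell also had 73670 CPM of mural cell markers. The highest VISp mouse held a cell whose highest marker list was that of neurons, with 408.8 CPM of Slc16a7.

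Pdk4 (ENSMUSG00000019577.6, chr6:5483351-5496309, - strand) had 10.32 and 15.9 CPM in CBX, 25.5, 66.6 and 134.2 CPM in VISp and 21.5, 23.1, 31.95 and 57.3 CPM in MB/HB. The CBX mice were below every mouse of the other tissues, and MB/HB overlapped the lower part of VISp. The log2 difference from VISp was -2.20 ± 0.45 in CBX, 4.6-fold lower (adjusted p = 0.000749), and MB/HB was 1.99-fold lower (SE 0.34 on the log2 scale, adjusted p = 0.0441). The CBX call was lost without CBX mouse 1 (-1.91, adjusted p = 0.0736) and with the mean over cells of log2 values (-1.40, adjusted p = 0.0529), and the MB/HB call in 13 of 20 alternative settings.

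Neither Pygb nor Gys1, the pair that breaks down and builds glycogen, passed as higher in CBX or MB/HB than in VISp. Pygb (ENSMUSG00000033059.7, chr2:150786735-150831758, + strand), the brain glycogen phosphorylase, had 106.7, 177.7, 178.97 and 260.8 CPM in MB/HB and 179.5 and 197.8 CPM in CBX. In VISp it had 198.98, 293.8 and 651.1 CPM. Of the MB/HB mice 3 of 4 lay below the VISp range, and both CBX mice lay just below it. The difference was -0.86 ± 0.24 in MB/HB (adjusted p = 0.0117, or 0.128 without mouse 2 and 0.104 with 1 model over all profiles) and -0.74 ± 0.32 in CBX (adjusted p = 0.169). Gys1 (ENSMUSG00000003865.16, chr7:45434844-45456619, + strand), the glycogen synthase of muscle and brain, had 17.6 and 32.3 CPM in CBX, 8.43, 45.1, 72.3 and 73.6 CPM in MB/HB and 27.7, 55.9 and 111.5 CPM in VISp. The groups overlapped and no difference passed (CBX -1.16, 95% interval -2.23 to -0.08, adjusted p = 0.194).

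**Figure D2:**
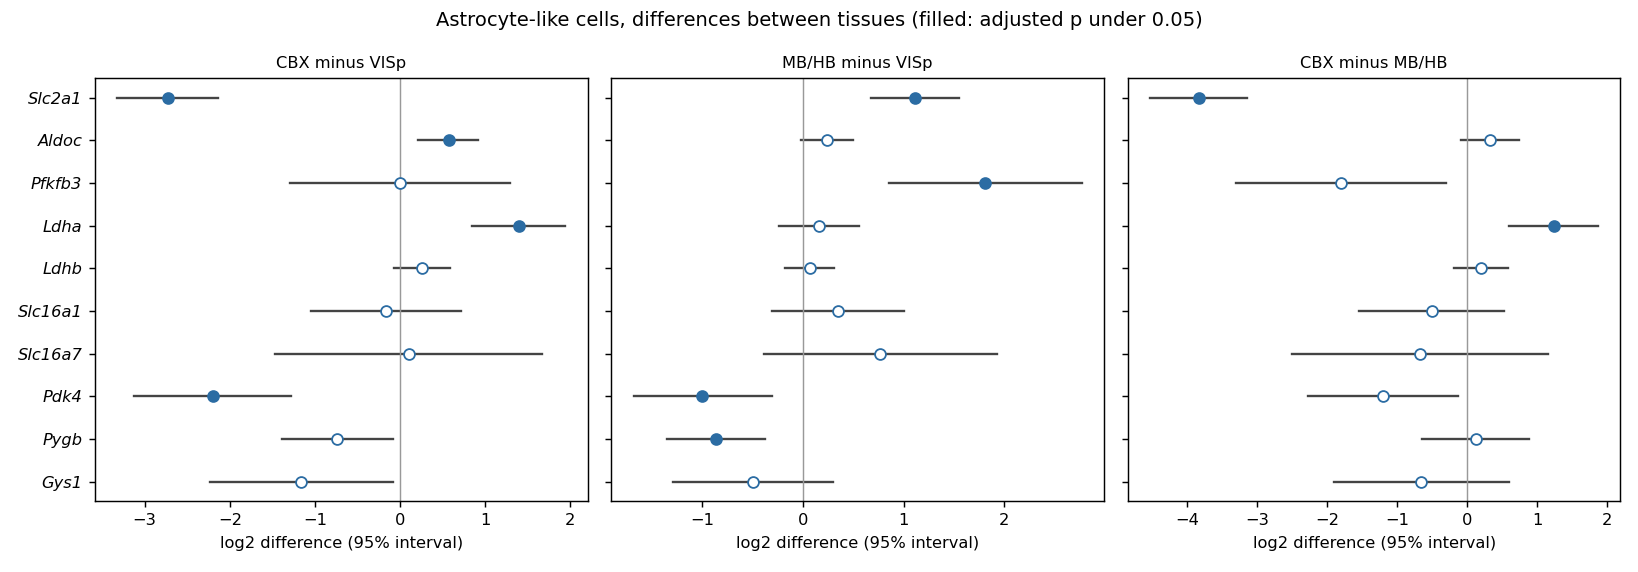
Log2 differences between tissues in astrocyte-like cells for the 10 genes, with 95% intervals from limma and filled points where the adjusted p was under 0.05. Slc2a1 lies at -2.73 for CBX and at 1.11 for MB/HB against VISp, and Ldha at 1.40 for CBX.

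Of 23 other glycogen genes, 5 passed as lower and 0 as higher in CBX than in VISp (median -0.54 against -0.03 over all genes), led by Ppp1r3g and Ppp1r3c, which encode subunits that bring protein phosphatase 1 to glycogen. Over all genes, 5.78% passed as lower and 4.94% as higher in CBX, and 7.17% and 6.27% in MB/HB. Ppp1r3g had 4.44 and 10.7 CPM in CBX, 35.9 to 60.4 CPM in MB/HB and 165.4 to 986 CPM in VISp, so the 3 tissues did not overlap. Its log2 difference was -5.41 ± 0.45 in CBX (adjusted p = 1.26e-10) and -2.79 ± 0.33 in MB/HB (adjusted p = 1.9e-07). Ppp1r3c differed by -3.27 ± 0.41 in CBX, and Gbe1, the glycogen branching enzyme, by -1.99 ± 0.63. In MB/HB 5 of 23 glycogen genes passed as higher and 4 as lower: Pygm, the muscle-type phosphorylase, had 422.7 to 536.2 CPM there and 69.4 to 374.4 CPM in VISp (1.37 ± 0.26, adjusted p = 0.00027). Ugp2, which makes UDP-glucose, was lower in MB/HB by 1.29 ± 0.13 on the log2 scale (168.3 to 266.4 against 438.4 to 790 CPM).

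Of 14 glycolysis enzymes tested, 3 were higher in CBX than in VISp and 1 was lower. Over all genes tested, 4.94% were higher and 5.78% lower in CBX than in VISp. For MB/HB against VISp those shares were 6.27% and 7.17%. The counts for the short lists given here were not tested against these shares. Hk2, a hexokinase, had 49.99 and 73.4 CPM in CBX and 0 to 12.5 CPM in VISp (4.63 ± 0.93, adjusted p = 0.000564). Pfkp, a phosphofructokinase, had 0.618 and 11.3 CPM in CBX and 183.1 to 523.6 CPM in VISp (-6.36 ± 0.38, adjusted p = 6.62e-14), while its relative Pfkm was higher by 1.03 ± 0.25 and the enolase Eno1 by 0.92 ± 0.15. In MB/HB 4 of 14 were higher and 0 lower, among them Pfkp (0.86 ± 0.28) and Pgk1 (0.58 ± 0.17). In the other lists, 0 of 4 glycolysis regulators passed by limma in CBX against VISp. Nor did any of 4 other genes of the Slc2a family, to which Slc2a1 belongs. The same was so for 5 genes of lactate transport and lactate dehydrogenase. Among 13 genes of pyruvate entry 1, the carrier subunit Mpc1, was higher (0.80 ± 0.21, adjusted p = 0.0104). In MB/HB 1 of 4 other genes of the Slc2a family, Slc2a13, and 1 of 13 genes of pyruvate entry, Pdk3, were lower (-2.02 and -2.09). Of 9 hypoxia genes and regulators of Pdk4, 2 passed in each tissue. Epas1 (HIF-2 alpha) and Vegfa, a hypoxia target, were lower in CBX than in VISp (-2.59 ± 0.35 and -2.13 ± 0.30), while Hif1a was higher (1.73 ± 0.28, adjusted p = 2.79e-05) and Foxo1 lower (-1.59) in MB/HB. Bsg, the chaperone of the lactate transporters, was higher in MB/HB by 0.90 ± 0.18, with endothelial markers higher in the same mice as given above. Bsg is also abundant in endothelium, and the part of those cells in its difference was not tested.

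Within the cortex, 7 of the 10 genes were higher in astrocyte-like than in oligodendrocyte-like cells, 2 were lower and Pfkfb3 did not pass. Aldoc, Ldhb, Pygb, Gys1, Pdk4, Ldha and Slc2a1 were higher, and both lactate transporters were lower. Of all 3539 genes tested, 57.7% passed, 34.4% higher and 23.3% lower in astrocyte-like cells. The median log2 difference of the 10 was 2.62, beside 0.15 over all genes. A call of this kind was therefore common, and the size of the differences says more than their number. The 10 genes were chosen with earlier results of these data known, so their median is a description of these genes only.

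Aldoc had 86.2, 291.2 and 689.7 CPM in the 22 oligodendrocyte-like profiles against at least 9357 CPM in the 19 astrocyte-like ones, a log2 difference of 5.40 ± 0.15 (42.3-fold, adjusted p = 1.98e-34). Ldhb had 27.4, 101.6 and 206.5 CPM against at least 1556 CPM (4.21 ± 0.16, 18.5-fold). Ldha had 44.8, 80.6 and 180.9 CPM against at least 219.4 CPM (2.36 ± 0.15, 5.13-fold). For these 3 genes no oligodendrocyte-like profile reached the astrocyte-like range, and the same was so for Pdk4 (0, 8.48 and 23.05 CPM, 2.88 ± 0.28), Pygb (3.91, 28.4 and 51.7 CPM, 3.73 ± 0.21) and Gys1 (0, 3.98 and 23.7 CPM, 3.51 ± 0.32). The share of all tested genes without overlap between these classes was not counted, so this separation need not be particular to them. Slc2a1 was close in both classes, with 130, 188.4 and 321.7 CPM in oligodendrocyte-like cells. Its difference of 0.58 ± 0.12, 1.5-fold (adjusted p = 2.46e-05), came with overlapping groups and was lost with the mean over cells of log2 values (0.43, adjusted p = 0.269) and with smaller profiles (adjusted p = 0.0803). Pfkfb3 had 4.69, 13.8 and 37.7 CPM in oligodendrocyte-like cells and differed by 0.42 (95% interval -0.14 to 0.98, adjusted p = 0.199).

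Both transporters ran the other way. Slc16a1 had 112.5, 234.2 and 350.4 CPM in oligodendrocyte-like cells, where the median exceeded the highest astrocyte-like mouse (197.3 CPM), and differed by -1.31 ± 0.15 (2.47-fold lower in astrocyte-like cells, adjusted p = 2.57e-10). Slc16a7 had 6.8, 26.5 and 45.7 CPM in oligodendrocyte-like cells, and 1 of 19 VISp astrocyte-like profiles, that of 9.28 CPM, reached that range. Its difference was -3.67 ± 0.26 (12.8-fold lower, adjusted p = 6.59e-18). 

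Because Ldhb fell further than Ldha from astrocyte-like to oligodendrocyte-like cells, the subunit balance shifted. It was -1.60, -0.24 and 2.42 over the 22 oligodendrocyte-like profiles, and 9 of the 22 had a higher CPM of Ldha than of Ldhb. No astrocyte-like mouse did. CPM is not corrected for gene length, so this is not an order of transcript levels. Per kilobase of exon, the oligodendrocyte-like mean was 85.4 CPM per kb for Ldhb and 48.5 for Ldha. The mean was higher by 1.85 than in VISp astrocyte-like cells (permutation test with 100000 resamples, p = 2e-05, the smallest they can give, 8e-05 adjusted over 4 comparisons). The spread between mice was also wider, with an SD of 1.01 against 0.40.

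**Figure D3:**
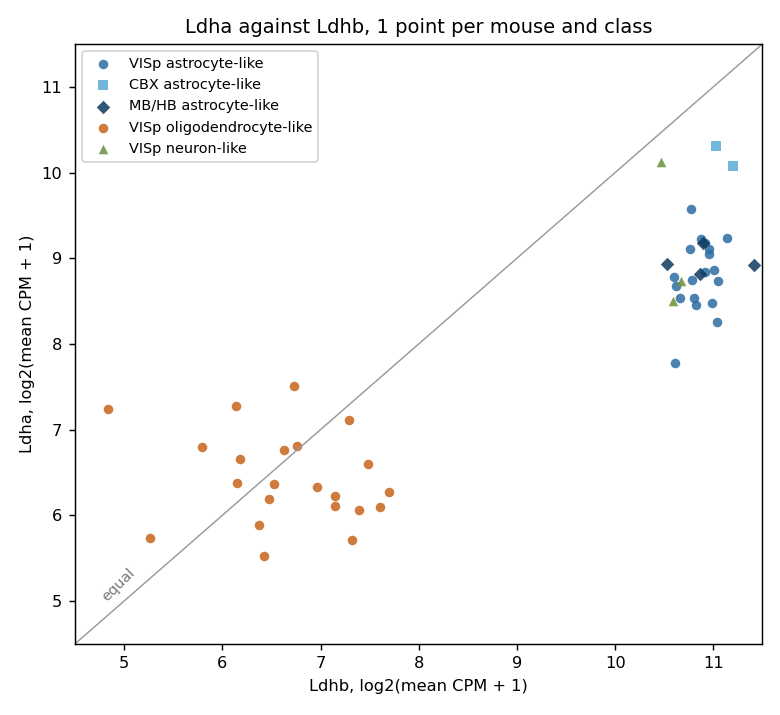
Ldha against Ldhb, both as log2(mean CPM + 1), 1 point per mouse and class, with the line of equal CPM, not corrected for gene length. Astrocyte-like and neuron-like points lie below the line, the 2 CBX squares nearest to it among the astrocyte-like ones, and 9 of the 22 oligodendrocyte-like points lie above it.

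Neuron-like cells of VISp were compared with both glial classes, over 3 mice. Against astrocyte-like cells, 7 of the 10 genes were lower in neuron-like cells, Slc16a7 was higher, and Ldha and Ldhb did not pass. Of all genes, 47% passed, 18.6% higher and 28.5% lower in astrocyte-like cells. Against oligodendrocyte-like cells, Slc16a1, Slc2a1, Aldoc, Pfkfb3 and Pdk4 were lower and Ldha and Ldhb higher in neuron-like cells. Of all genes, 46.4% passed in that comparison, 14.7% higher and 31.6% lower in oligodendrocyte-like cells. These 2 comparisons share the neuron-like profiles.

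Ldhb had 1419, 1542 and 1623 CPM in the neuron-like profiles, next to the astrocyte-like range of 1556 to 2251 CPM. The difference was 0.28 (95% interval -0.36 to 0.92) for astrocyte-like minus neuron-like cells and, for oligodendrocyte-like minus neuron-like, -3.93 ± 0.32 (15.2-fold lower in oligodendrocyte-like cells, adjusted p = 4.39e-15). Ldha had 361.5, 424.6 and 1108 CPM, of which 1 value, from mouse 1, was above the VISp astrocyte-like range. Mouse 1 had 13 neuron-like cells and was the only one with vector eHGT_374m. The other mice had 21 and 27 such cells and vector MBP_promoter, so vector and mouse cannot be told apart here. Astrocyte-like minus neuron-like, the difference was -0.32 (95% interval -0.93 to 0.29), or -1.74 (adjusted p = 0.00319) with the mean over cells of log2 values, which passed. Oligodendrocyte-like minus neuron-like, it was -2.68 ± 0.30. The balance was -0.36 in mouse 1 and -2.09 and -1.93 in the other neuron-like profiles, a mean 0.60 above that of astrocyte-like cells (exact permutation p = 0.125, 0.166 adjusted).

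Slc16a7, known as the neuronal lactate transporter, had 10.8, 23.5 and 29.4 CPM in neuron-like cells, above every VISp astrocyte-like mouse (-3.43 ± 0.51 for astrocyte-like minus neuron-like, 10.8-fold, adjusted p = 1.12e-07). The oligodendrocyte-like range of 6.8 to 45.7 CPM held all 3 values, and the difference of 0.24 (95% interval -0.77 to 1.25) did not pass. With the mean over cells of log2 values it was -1.16 and passed (adjusted p = 1.62e-05), so its direction depended on how cells were averaged. Slc16a1 had 12.8, 14.5 and 16.03 CPM in neuron-like cells, below every glial profile (2.60 ± 0.31 against astrocyte-like, 3.91 ± 0.30 against oligodendrocyte-like cells, 15.05-fold). With the mean over cells of log2 values, the difference from astrocyte-like cells was 0.76 and did not pass (adjusted p = 0.261).

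Slc2a1 had 12.4, 14.96 and 19.5 CPM in neuron-like cells and was 17.2-fold higher in astrocyte-like (4.11 ± 0.23) and 11.49-fold higher in oligodendrocyte-like cells (3.52 ± 0.23). Aldoc had 60.2, 106.2 and 188.5 CPM in neuron-like cells (6.78 ± 0.29 below astrocyte-like cells). Against oligodendrocyte-like cells it differed by 1.38 ± 0.29, with overlapping groups, and by -0.29 (adjusted p = 0.582) where profiles of at least 3 neuron-like or 5 glial cells were used. Pfkfb3 had 0.398, 5.73 and 9.04 CPM. Without mouse 1, which had the lowest value, its differences from astrocyte-like (1.34, adjusted p = 0.0738) and oligodendrocyte-like cells (0.84, adjusted p = 0.298) did not pass. Pygb had 16.1, 33.9 and 36.7 CPM and Gys1 6.43, 7.81 and 11.2 CPM, below the astrocyte-like and within the oligodendrocyte-like range. With the mean over cells of log2 values both were lower in oligodendrocyte-like cells (-1.99, adjusted p = 0.000116, and -1.14, adjusted p = 0.000353), while both Pfkfb3 differences did not pass (0.37 and 0.33).

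Pdk4 was listed at 0 in all 61 neuron-like cells, which allows a share of cells with a read of up to 4.92%. The counting error alone is covered by this limit. In VISp astrocyte-like cells 34.9% ± 11.1 (SD, n = 19) of a mouse's cells had a Pdk4 read, and in oligodendrocyte-like cells 7.99% ± 5.48 (n = 22).

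**Figure D4:**
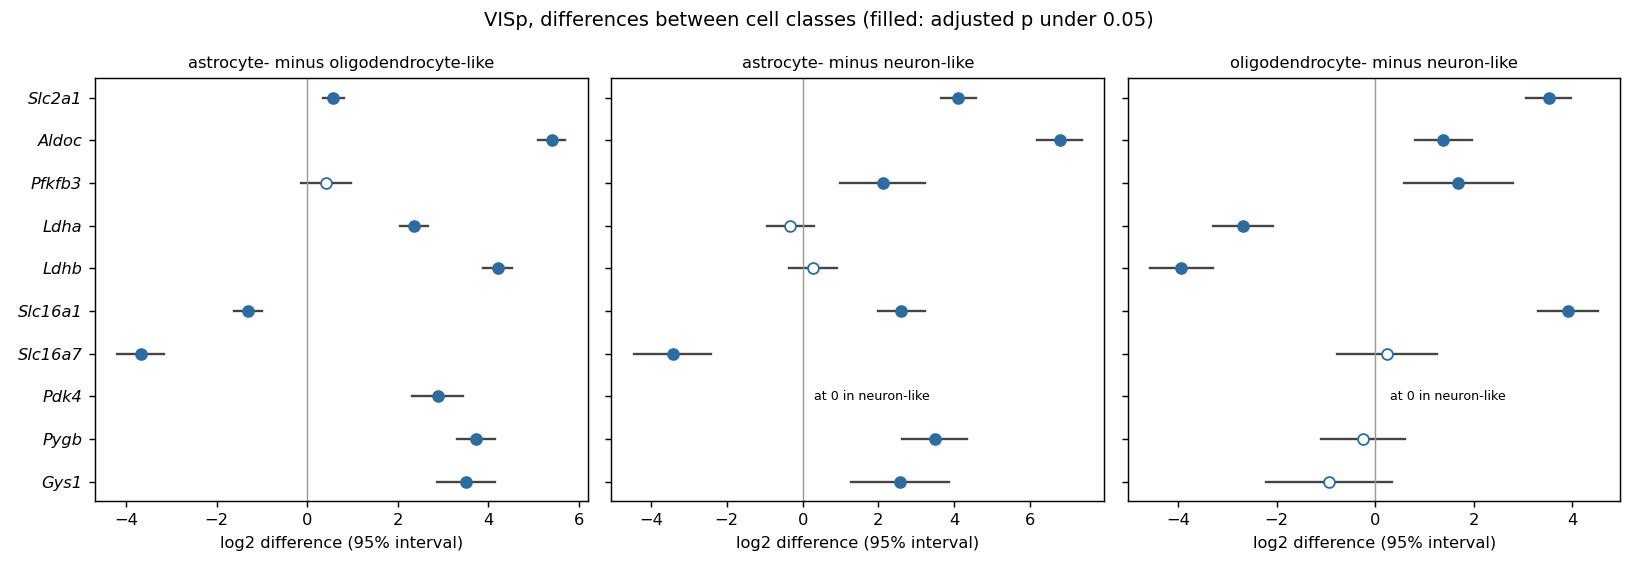
Log2 differences between cell classes of VISp for the 10 genes, with 95% intervals from limma and filled points where the adjusted p was under 0.05; Pdk4 has no point where neuron-like cells were at 0. The transporters Slc16a1 and Slc16a7 lie left of 0 in the first panel, at -1.31 and -3.67, where Aldoc reaches 5.40.

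Against oligodendrocyte-like cells, 12 of 15 glycolysis enzymes were higher in astrocyte-like cells and 0 lower (median 1.17, 0.15 over all genes), with Pfkm at 5.56 ± 0.35 and Pfkp at 4.44 ± 0.20. Over all genes, 34.4% were higher and 23.3% lower. Of 22 glycogen genes tested, 17 were higher and 3 lower (median 2.10). Ppp1r3g differed by 7.34 ± 0.28, Ppp1r3c by 6.19 ± 0.36 and Pygm by 6.02 ± 0.35, while Ppp1r3e, Phka2 and Gyg were lower. Of 13 genes of pyruvate entry, 9 were higher and 1, Pdk3, was lower (-2.93 ± 0.24, with 74.7 to 266.4 CPM in oligodendrocyte-like and 0.462 to 33.7 CPM in astrocyte-like cells). All 4 other genes of the Slc2a family were higher. Of 5 other genes of lactate transport and lactate dehydrogenase, 3 were higher (Ldhd, Bsg and Ldhc) and 2 lower (Emb and Slc16a3). The kinase Pdk2, a relative of Pdk3, was higher by 1.81 ± 0.10. Emb, like Bsg a partner of the lactate transporters, was lower by 1.72 ± 0.18 and Bsg higher by 1.03 ± 0.07.

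Against neuron-like cells the glycolysis enzymes were not higher as a group: 1 of 15 passed as higher in astrocyte-like cells and 7 as lower. Over all genes, 18.6% were higher and 28.5% lower. Eno2, the neuronal enolase, had 561.4 to 822 CPM in neuron-like and 0 to 41.8 CPM in astrocyte-like cells (-6.26 ± 0.80), and Pkm differed by -1.84 ± 0.17. Slc2a3 (GLUT3), the neuronal glucose transporter, had 45.8 to 53.7 CPM in neuron-like and 0.392 to 23.9 CPM in astrocyte-like cells (-3.31 ± 0.67, adjusted p = 4.15e-05). Emb had 36.6 to 68.3 CPM in neuron-like cells (-4.86 ± 0.37). Of 22 glycogen genes, 10 were higher in astrocyte-like cells and 3 lower. Between oligodendrocyte-like and neuron-like cells, 13 of 15 glycolysis enzymes were lower in oligodendrocyte-like cells (median -2.36, -0.30 over all genes), among them Pfkm at -5.28 ± 0.68. Over all genes, 31.6% were lower there.

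**Figure D5:**
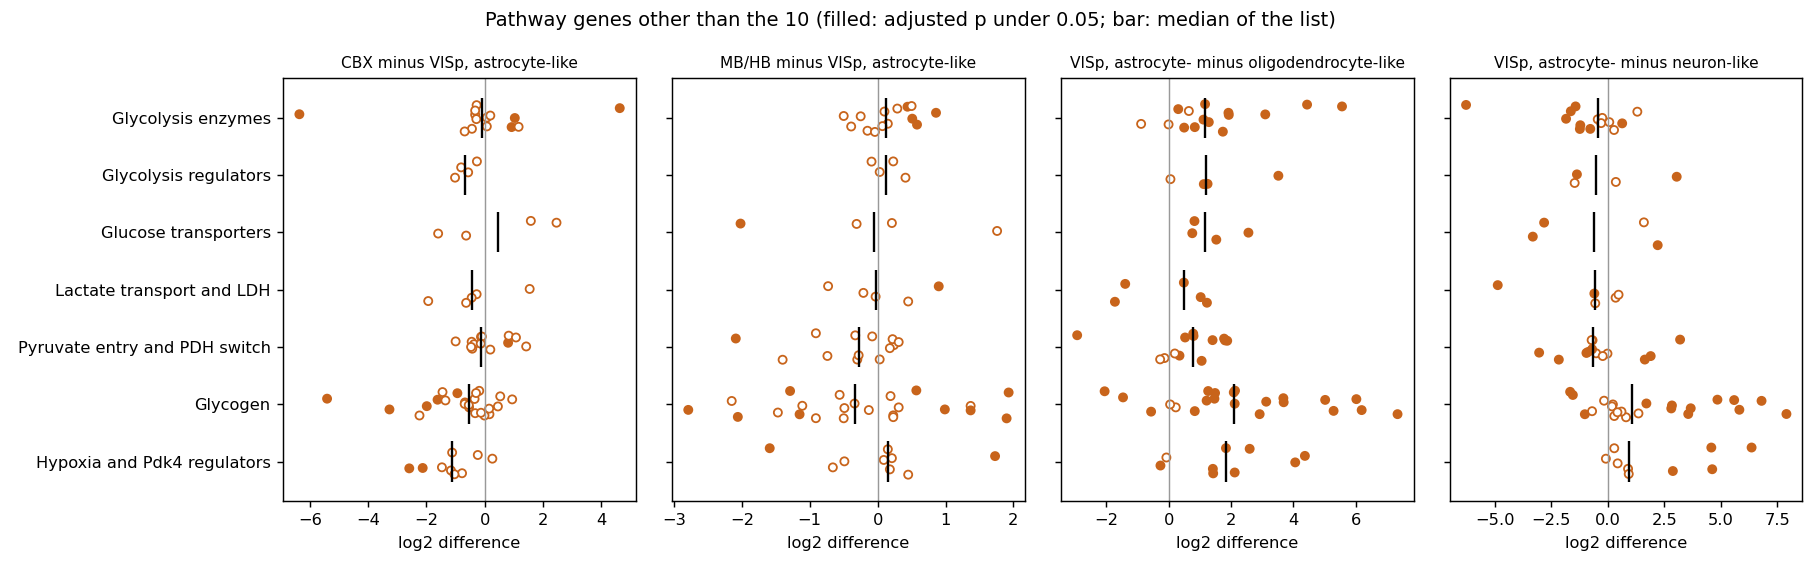
Log2 differences of the other pathway genes by list in 4 comparisons, 1 point per gene, filled where the adjusted p was under 0.05, with bars at the list's median. In CBX against VISp the glycogen list has 5 called points, all left of 0, and in the comparison of astrocyte-like with oligodendrocyte-like cells 17 of its 20 called points lie right of 0.

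Single cells of 1 class differed widely. Aldoc and Ldhb were read in 100% and 99.7% of VISp astrocyte-like cells, with quartiles of 8876 to 14029 and 1310 to 2349 CPM. Slc2a1 was read in 71.7% ± 11.1 of a mouse's cells (68.6% after thinning each cell to 50000 reads), Pygb in 87.7% ± 7.65 (83.6%) and Pfkfb3 in 35.4% ± 16.5 (22.4%). The tenth of cells with most Pfkfb3 held 79.8% of its summed CPM, against 17.9% for Aldoc. Slc16a1 was read in 37.4% ± 11.3 of VISp astrocyte-like cells and 74.5% ± 13.9 of oligodendrocyte-like cells (34.8% and 71.6% after thinning). Slc16a7 was read in 13.4%, 30.8% and 54.6% of VISp astrocyte-, oligodendrocyte- and neuron-like cells, and in 2.6%, 20% and 38.2% after thinning. Over the 739 VISp astrocyte-like cells, the closest pair was Ldhb and Aldoc (Spearman 0.45, a description, since cells share mouse and depth).

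The genes whose levels ran most alike over the 50 mouse and class profiles, among 3630 genes, are given here for each of the 10. Aldoc went with Cldn10, Ndrg2 (both 0.98, Pearson r) and Prdx6 (0.97), Slc16a1 with Tmbim1 (0.90), Plekhb1 (0.89) and Csrp1 (0.87), and Slc16a7 with Epb41l3 (0.91), Stmn4 and Shtn1 (both 0.89). Ldha went with Eno1 and Tpi1 (both 0.93) and Gys2 (0.90). Ldhb went with Gys2 (0.98), Chchd10 and Eno1 (both 0.96). Gys2, annotated as the liver glycogen synthase, lies 17139 bases downstream of Ldhb on the same strand (chr6:142422613-142473109). It had only 6.83 to 19 CPM in VISp astrocyte-like cells, and whether its reads come from Ldhb transcripts was not tested, so its level is uncertain. Slc2a1 went with Srebf1, Ncam1 (both 0.81) and Epas1 (0.79), Pdk4 with Pdlim5 (0.89), Htra1 (0.88) and Prdx6 (0.85), Pygb with Cs, Sfxn5 (both 0.94) and Gli3 (0.93), and Gys1 with Msi2 (0.89), Cables1 and Ntrk2 (both 0.87). Pfkfb3 had no close match (Zswim5 0.63, Tmc7 0.62, Cd63 0.58). These are descriptions over profiles that share mice and classes.

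None of the 10 genes passed a test of vector within a class. Each vector tested had 2 or 3 mice, so an effect could be missed. Vectors with 1 mouse were not tested. Over 7 vectors with at least 2 mice (14 mice), 0% of 3185 genes passed limma's F-test in VISp astrocyte-like cells, with 4.33% at an unadjusted p under 0.05. Over 5 vectors (12 mice), 0% of 2878 genes passed in VISp oligodendrocyte-like cells, with 6.01% at an unadjusted p under 0.05. In oligodendrocyte-like cells the lowest unadjusted p among the 10 was that of Ldhb (0.00109, adjusted p = 0.392), whose vector means ranged over 1.91 on the log2 scale, lowest with MBP_promoter (5.04 ± 0.30, SD, 2 mice). In astrocyte-like cells the largest range of vector means was that of Pfkfb3 at 2.50 (adjusted p = 0.967). Without a filter on low values, 9 and 1 genes passed in the 2 tests.

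Plates carry the prefix AB or SM, and CBX, MB/HB and neuron-like profiles were all from AB plates. On AB plates alone the CBX against VISp differences were 1.41 for Ldha, -2.72 for Slc2a1, 0.57 for Aldoc and -2.20 for Pdk4, and the MB/HB differences were 1.12 for Slc2a1, 1.69 for Pfkfb3 and -0.77 for Pygb. Each passed, while Pdk4 in MB/HB did not (-0.99, adjusted p = 0.0694). The astrocyte-like against oligodendrocyte-like differences on AB plates were 5.33 for Aldoc, 4.27 for Ldhb, -1.36 for Slc16a1 and -3.62 for Slc16a7. On SM plates Aldoc was at 13.54 ± 0.04 (log2, SD, 3 mice) in astrocyte-like and 7.94 ± 0.76 (6 mice) in oligodendrocyte-like cells.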

How the data were processed

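Per the labels, single SYFP2-positive cells were flow sorted and made into SMARTerv4 libraries. The deposited table holds CPM per cell; STAR and mm10 (GRCm38) are named in the submitters' processing notes, and the counting step is not given in the sources used here. Each cell's values summed to 1000000, and all 9484843 positive values were whole multiples of 1 read within 0.001. The unit of the deposited columns recorded as other was taken from these sums. The 182 listed and 4768 random protein-coding genes were used, which makes a panel of 4950 genes to which all gene counts refer; the other 27295 gene columns were not used.

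Cells were clustered on 2000 variable genes (30 principal components, 15 neighbours, Leiden resolution 1, leidenalg 0.10.2, scikit-learn 1.9.0, Python 3.11.15) and named from marker lists; 2031 of 2040 cells got the same class per cell. Doublets were not called; cells with markers of another class were left out as an alternative. Mouse means were tested on log2(mean CPM + 1), which understates changes of low genes, with limma 3.58.1 (trend, two-sided) for genes at 1 CPM or more in at least 2 profiles and Benjamini-Hochberg adjustment at 0.05. All 10 genes passed this filter. Astrocyte-like profiles of 3 tissues shared 1 model, and VISp classes another. Profiles of 2 classes from 1 mouse were treated as separate. Mice are separate animals by their labels. Lengths and positions are from GENCODE M21. Named pathway genes are at most 3 per list and direction with the largest passing change; like genes are the 3 with the highest Pearson correlation. The fit was tested on simulated data. A planned edgeR fit was replaced by limma on summed reads, since reads were recovered per cell and not per deposited column. The members and lists were chosen with earlier results of these data known.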

Additional observations from a re-analysis of the deposited data

Results flagged for a closer look

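In MB/HB astrocyte-like cells, Slc16a7 stood apart in mouse 2 (vector eHGT_381h) at 4.52 on the log2(mean CPM + 1) scale, where the other 3 mice lay between 0.43 and 1.09 (gap over range 0.838, above Dixon's critical value for 4 samples). The value rests on 1 of 32 cells, with 703.6 CPM of Slc16a7 and 73670 CPM of mural markers. It was the only outlier in 11 searches (10 genes and the Ldha to Ldhb balance), of which chance flags about 1 in 20.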

How the results depend on the processing

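Of 80 results for single genes, 62 kept the same call in every one of up to 24 alternatives. The 80 include the tests of vector, which have no direction and of which none passed. A result that did not pass could change sign and still count as the same. Pfkfb3 between CBX and VISp was 0.30 without cells with an endothelial read and -0.12 on AB plates. With the mean over cells of log2 values, 25.6% of the tested genes passed for CBX against VISp (87.1% of those higher in CBX, against 46.1% in the reported fit), 28.7% for CBX against MB/HB (86.6% higher, against 44.3%), 74.7% for astrocyte-like against neuron-like (14.8% higher, against 39.5%) and 71.4% for oligodendrocyte-like against neuron-like cells (11.4% higher, against 31.7%). The median difference over all genes was then -1.03 and -0.92 in the last 2 of these, the balance of neuron-like cells was 1.97 above that of astrocyte-like cells (exact permutation p = 0.00909), and Slc16a7 between oligodendrocyte-like and neuron-like cells was -1.16. Quantile normalization brought Aldoc in CBX to 0.00, and the share of passing genes higher in astrocyte-like than in oligodendrocyte-like cells to 46% from 59.6%, and in oligodendrocyte-like than in neuron-like cells to 48.5%. With 1 model over all profiles, 56.8% and 54.9% of passing genes were higher in CBX against VISp and MB/HB. With smaller profiles the neuron-like balance was 0.67 (exact permutation p = 0.0224) and Aldoc between oligodendrocyte-like and neuron-like cells -0.29. Without a filter 0.219% and 0.0256% of genes passed in the vector tests of astrocyte-like and oligodendrocyte-like cells. Without cells with an endothelial read (chosen after seeing the data), 7.6%, 8.49% and 5.4% of genes passed for CBX against VISp, MB/HB against VISp and CBX against MB/HB. Leaving out 1 CBX or MB/HB mouse at a time, 5.6% to 11.8% of genes passed for CBX against VISp and 4.43% to 9.62% for CBX against MB/HB, the low ends without a CBX mouse (at most 5.81% and 5.23%). Without 1 CBX mouse the balance was 0.94 to 1.34 above VISp (exact permutation p = 0.1, the smallest that 1 against 19 allows), the lone mouse being assumed to vary like the others. Limma on summed reads, chosen after seeing the data, took the place of edgeR, which was not run. Mouse as a replicate block (correlation 0.0167) gave 57.8%, 47.2% and 46.4% passing genes in the class comparisons and changed no call of the 10 genes. Slc16a7, Pfkfb3, Pdk4 and Gys1 were among the genes that most cells of at least 1 class lacked, and depth can limit them to unlike degrees. Thinning as above lowered the share of VISp astrocyte-like cells with a Slc16a7 read to 2.6% from 13.4%. The share fell to 22.4% from 35.4% for Pfkfb3, to 27.9% from 38% for Gys1 and least for Pdk4, to 31.5% from 34.9%. The 2 CBX and 3 neuron-like mice limit the comparisons that use them. The cause of the changes between alternatives was not tested.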
